A study of Mus musculus with 6 samples.

Results

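The Cyp2c genes encode cytochrome P450 enzymes of mouse liver, and 10 of them (Cyp2c29, Cyp2c37, Cyp2c38, Cyp2c39, Cyp2c40, Cyp2c50, Cyp2c54, Cyp2c55, Cyp2c68 and Cyp2c70) were examined here. They were taken by gene name from the 34745 genes of the deposited table, where each name was found once. Bulk RNA-Seq had been performed on livers of WT mice given APAP (acetaminophen, 300 mg/kg, intraperitoneal, 12 hours) and of WT mice given saline, all after a 12-hour fast. The study's Methods name male C57BL/6J mice of 8 to 10 weeks. The series has 3 liver samples per group, and 5 libraries were analysed, namely APAP replicates 1 and 3 and the saline libraries WT1 to WT3 (3 libraries). APAP replicate 2 was not analysed here. Nothing ties WT1 to WT3 to the numbered saline samples, and they were taken for the saline group since every remaining count column bears APAP in its name.

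P450 enzymes of the Cyp2c subfamily sit in the membrane of the endoplasmic reticulum of hepatocytes. They use heme and electrons from NADPH to oxidize drugs, steroids and fatty acids, and several of them turn arachidonic acid into epoxides and hydroxylated products. In mouse liver the subfamily has many more genes than in humans, most of them in 1 cluster, and some are known to differ between males and females or to be expressed mainly around the central vein. All 10 members lie on chromosome 19 of GRCm38, between 39007019 (the start of Cyp2c55) and 40187333 (the end of Cyp2c70). All 10 have 9 exons in the GENCODE M21 transcript used here.

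The P450 fold binds heme through a cysteine near the end of the protein, and the 30 coding bases of this loop show how close the members are to each other. They are given from the GENCODE M21 transcripts, 5′ to 3′, with the codon of the heme-binding cysteine in capitals. This codon lies in exon 9, and the 30 bases cross the junction with the exon before it.
Cyp2c29: ttttcaacaggaaaacggattTGTgctgga
Cyp2c38: ttctcagcaggaaaacgggttTGTgctgga
Cyp2c39: ttctcagcaggaaaacgtgttTGTgctgga
Cyp2c37: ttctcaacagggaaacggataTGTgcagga
Cyp2c54: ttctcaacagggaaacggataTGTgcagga
Cyp2c50: ttctcaacaggaaaacggataTGTgcagga
Cyp2c40: ttctcagcaggaaaacggattTGTgtggga
Cyp2c68: ttctcagcaggaaaacggattTGTgtggga
Cyp2c55: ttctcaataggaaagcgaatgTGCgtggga
Cyp2c70: ttctcagcaggaagaagagctTGTattgga
The 10 members had 8 different loops. Cyp2c37 and Cyp2c54 shared one, as did Cyp2c40 and Cyp2c68. Compared with Cyp2c29, the loop of Cyp2c38 or Cyp2c50 differed at 3 bases, that of Cyp2c55 at 8 and that of Cyp2c70 at 9.

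The 120 bases upstream of the RefSeq transcript start (GRCm38.p6) are shown for 5 members. These are Cyp2c29 and Cyp2c37, the 2 highest in the saline libraries per kilobase, Cyp2c40 and Cyp2c68, which are close in sequence and far apart in fold change, and Cyp2c70, the bile acid enzyme. Capitals mark CAAAGT, a core of sites bound by the hepatocyte factor HNF4A, and TATAAA, the TATA box, on either strand.
Cyp2c29 (chr19:39286965-39287084, plus strand): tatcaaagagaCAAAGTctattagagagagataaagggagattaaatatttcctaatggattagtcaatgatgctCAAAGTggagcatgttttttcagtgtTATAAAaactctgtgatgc
Cyp2c37 (chr19:39992304-39992423, plus strand): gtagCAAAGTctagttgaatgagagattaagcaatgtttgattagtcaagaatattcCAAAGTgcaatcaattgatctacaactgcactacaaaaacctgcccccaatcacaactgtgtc
Cyp2c40 (chr19:39812815-39812934, minus strand): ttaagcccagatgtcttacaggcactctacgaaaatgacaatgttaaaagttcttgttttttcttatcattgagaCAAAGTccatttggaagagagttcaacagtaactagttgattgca
Cyp2c68 (chr19:39741102-39741221, minus strand): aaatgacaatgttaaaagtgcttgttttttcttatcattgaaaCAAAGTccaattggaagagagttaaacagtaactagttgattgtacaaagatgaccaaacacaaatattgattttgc
Cyp2c70 (chr19:40187287-40187406, minus strand): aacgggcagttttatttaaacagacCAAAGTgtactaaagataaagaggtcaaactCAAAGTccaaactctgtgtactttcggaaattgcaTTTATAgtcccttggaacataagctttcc
The RefSeq starts of Cyp2c29 (39287085) and Cyp2c70 (40187286) lie inside the spans that the deposited table gives these genes, which begin at 39269405 and 40187333. Those of Cyp2c68, Cyp2c39 and Cyp2c50 lie 47, 40 and 17 bases from the start of the GENCODE transcript. Positions here are counted from the RefSeq start and would differ from the other one. RefSeq promoter windows of 300 bases (250 before and 50 after the start) were found for 9 of the 10 members. All motifs were searched on both strands. CAAAGT was present in 8 of the 9 windows, and 14.4% of all 32851 promoter windows held it. It was searched for after the sequences had been read. TATAAA was present in 6 of the 9 windows and in 13.6% of all windows. It lay 19 to 31 bases upstream of the start in Cyp2c29, Cyp2c38, Cyp2c55 and Cyp2c70. In Cyp2c39 it lay 3 bases upstream, and in Cyp2c40 it lay after the start, at base 41. AGGTCA, a core of nuclear receptor sites, was present in 2 of the 9 (Cyp2c29 and Cyp2c70), as were GTTAAT, a core of HNF1 sites, and the C/EBP core TTGCG, both in Cyp2c40 and Cyp2c68. All windows held these 3 at 16.3%, 7.10% and 17.4%. The E-box CANNTG was in 8 of the 9 and in 72.3% of all windows, CCAAT in 4 of the 9 and in 37.4%, and the STAT5 palindrome TTCNNNGAA in none of the 9 and in 8.30%. A match describes these letters only, and the windows of related members are not independent of each other. Over the 250 upstream bases, Cyp2c37 and Cyp2c50 were 84.3% identical and Cyp2c40 and Cyp2c68 73.1%. The windows of Cyp2c40 and Cyp2c68 are offset from each other, with CAAAGT 45 bases upstream of the RefSeq start in Cyp2c40 and 77 in Cyp2c68. This offset lowers their identity.

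The total count was between 13378445 and 15976339 per library, and 3 counts, used as the detection floor, were worth 0.176 to 0.269 CPM (counts scaled to a common library total after TMM normalization). Floors and intervals here cover counting error only. The labels do not say that the libraries come from separate mice, although the Methods speak of biological repeats for all experiments. If they do not, the p-values measure only a spread that may be technical. Sex-linked genes separated the groups. Xist, transcribed from the inactive X chromosome of females, measured 289.6, 914 and 882 CPM in saline libraries and 0.764 and 1.73 CPM after APAP, while Ddx3y, from the Y chromosome, went from 0, 0 and 0.0668 CPM to 78.97 and 61.7 CPM. These levels of Xist and Ddx3y in the saline libraries go against the male mice of the Methods, and whether WT1 to WT3 are the numbered saline samples could not be settled from the sources used here. They are called saline below on the reading of the column names given above. The effect of APAP and a difference in sex between the groups cannot be told apart in any value below. The labelled tissue was checked on Alb, which encodes albumin and was at 51540 CPM or more in every library.

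Each of the 10 members was lower in APAP replicates 1 and 3 than in any saline library. The groups did not overlap in this direction in 20.1% of the 13734 genes tested. By edgeR's quasi-likelihood test, 8 of the 10 members fell (Benjamini-Hochberg adjusted p under 0.05 over all genes) and none rose, against 3.53% of all genes tested that fell and 3.70% that rose. At an unadjusted P under 0.05 with a fold change of at least 1.5, the thresholds of the study, 10 were lower and 0 higher, against 11.2% and 12.3% of all genes. DESeq2 and edgeR's other tests also called 0 members higher. The median log2 fold change of the members was −3.73, against 0.03 for all genes tested, and 4.08% of these had a value at or below that of Cyp2c39, the least changed member. Scaling to library size only gave medians of −3.31 and 0.42. Leaving out APAP replicate 1 lowered the number of members that fell from 8 to 5, and the number of all genes with an adjusted p under 0.05 from 993 to 235. Without an APAP library that group is a single library, which is assumed to vary as the saline libraries do.

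**Figure D1:**
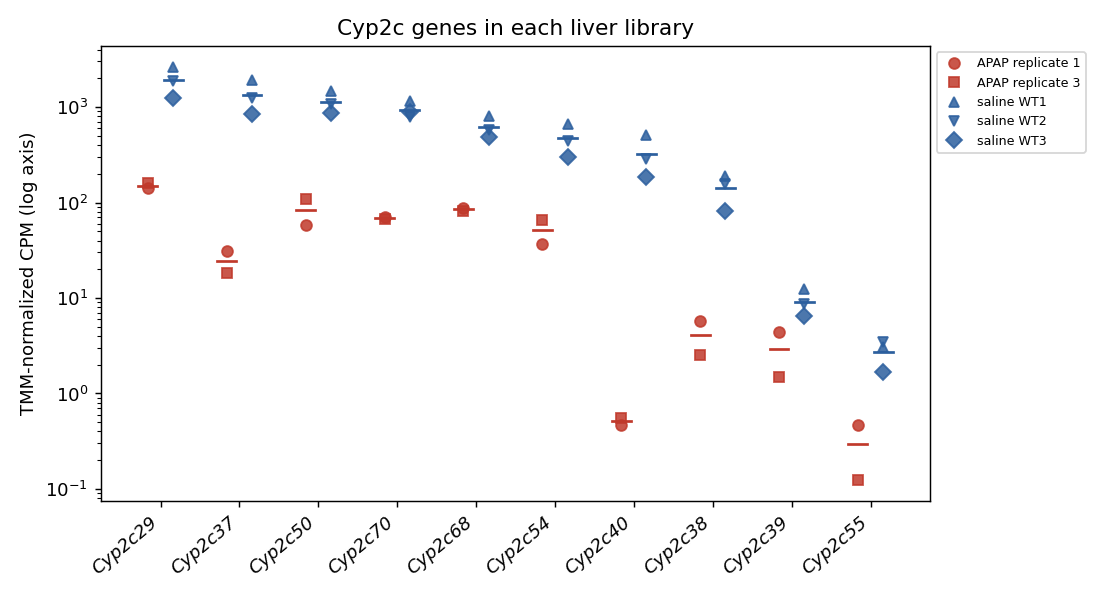
TMM-normalized CPM (log axis) of the 10 Cyp2c genes in 2 APAP libraries (red) and 3 saline libraries (blue), with a line at each group's mean and genes ordered by their saline mean. For each gene both red points lie below all blue points, with the widest gap for Cyp2c40 (0.470 and 0.556 CPM against 185.8 CPM or more).

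In 9 of the 10 members the saline library WT3 was the lowest of its group (WT2 in Cyp2c70), and 6 members were higher in APAP replicate 1 than in replicate 3. Together the 10 members summed to 9363, 6450 and 4910 CPM in saline libraries and to 437 and 504 CPM after APAP. The highest APAP library was thus far below the lowest saline library, and the saline mean (6908 ± 2262 CPM, SD, n = 3) was 14.7 times the APAP mean (470.3 ± 47.4 CPM, SD, n = 2). An exact permutation test over libraries, two-sided, gave p = 0.2, the smallest p that 2 against 3 libraries allow. As a share of all counts, without TMM, the members took 0.0556% and 0.0549% of the APAP libraries (95% Wilson intervals 0.0543% to 0.0568% and 0.0537% to 0.0561%). They took 0.733%, 0.632% and 0.460% of the saline libraries WT1, WT2 and WT3, where the intervals were 0.728% to 0.737%, 0.628% to 0.636% and 0.457% to 0.463%. In whole liver, fewer hepatocytes of a kind and less RNA per hepatocyte cannot be told apart.

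Cyp2c29, Cyp2c38 and Cyp2c39 are closely related epoxygenases of arachidonic acid, and Cyp2c39 also oxidizes retinoic acid. Cyp2c29 (ENSMUSG00000003053, chromosome 19, 39269405 to 39330713, plus strand), which is known to be expressed mainly around the central vein, measured 2651, 1865 and 1255 CPM in saline libraries and 140.9 and 158.6 CPM after APAP. Its APAP libraries lay close together, and its log2 fold change was −3.68 (SE 0.43, edgeR quasi-likelihood test, adjusted p = 0.00678). Without APAP replicate 1 the fold change was about as large (−3.60), and its adjusted p was 0.0593 in the same test. Cyp2c38 (ENSMUSG00000032808, 39389556 to 39463075, minus strand) measured 190.1, 154.8 and 80.8 CPM in saline libraries and 5.76 and 2.53 CPM after APAP. It fell by 5.09 on the log2 scale (SE 0.57, same edgeR test, adjusted p = 0.00605), and the value was −5.80 without APAP replicate 1. Cyp2c39 (ENSMUSG00000025003, 39510862 to 39568529, plus strand) had few counts, 75 and 24 with APAP and 137, 130 and 97 with saline. It measured 12.3, 8.64 and 6.48 CPM in saline libraries and 4.41 and 1.48 CPM after APAP, so that APAP replicate 1 came near the lowest saline library. Its log2 fold change of −1.62 (SE 0.53, adjusted p = 0.118) did not pass the test, and leaving out APAP replicate 1 or 3 gave −2.61 or −1.06.

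Cyp2c37, Cyp2c50 and Cyp2c54 metabolize arachidonic and linoleic acid and are more than 95% identical in coding sequence (95.1% to 96.1%). Cyp2c37 (ENSMUSG00000042248, 39992424 to 40012243, plus strand) measured 1901, 1255 and 841 CPM in saline libraries and 30.7 and 18.5 CPM after APAP. It fell by 5.76 on the log2 scale (SE 0.55, edgeR quasi-likelihood test, adjusted p = 0.00398), so that 1.85% of the saline mean was left. Cyp2c50 (ENSMUSG00000054827, 40089688 to 40113950, plus strand) measured 1473, 1076 and 873 CPM in saline libraries and 57.7 and 108.3 CPM after APAP, a log2 fold change of −3.78 (SE 0.45, same edgeR test, adjusted p = 0.00676). Cyp2c54 (ENSMUSG00000067225, 40037941 to 40073811, minus strand) measured 669.7, 445 and 300.2 CPM in saline libraries and 36.7 and 66.3 CPM after APAP. It fell by 3.20 on the log2 scale (SE 0.47, same edgeR test, adjusted p = 0.0149). Without APAP replicate 1 the value of Cyp2c54 was −2.83 (adjusted p = 0.100), and without the saline library WT2 it was −3.24 (adjusted p = 0.0650). Cyp2c37 was higher in APAP replicate 1 than in replicate 3, while Cyp2c50 and Cyp2c54 were higher in replicate 3.

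Cyp2c40, which makes hydroxylated products of arachidonic acid and is known as a female-biased gene of mouse liver, had the lowest log2 fold change of the members. Cyp2c40 (ENSMUSG00000025004, 39767071 to 39812814, minus strand) had 5628, 4322 and 2781 counts in the saline libraries but 8 and 9 after APAP. This was 504, 287.1 and 185.8 CPM against 0.470 and 0.556 CPM, a mean 635 times lower and a log2 fold change of −9.29 (SE 0.67, edgeR quasi-likelihood test, adjusted p = 0.00182). Cyp2c40 passed the count filter through its saline libraries. Its few APAP counts, and reads it can share with related genes (below), limit how precisely this fold change is known. Cyp2c68 (ENSMUSG00000074882, 39688834 to 39741054, minus strand), the nearest member to it, is 92.6% identical in coding sequence, with gaps counted as differences. The annotated coding sequence of Cyp2c40 is longer (1560 bases against 1473), which lowers this value. Cyp2c68 measured 804, 569.8 and 488 CPM in saline libraries and 88.3 and 80.8 CPM after APAP. It fell by 2.88 on the log2 scale (SE 0.33, same edgeR test, adjusted p = 0.00619), the smallest change among the 8 members that fell, and without APAP replicate 1 the value was −2.94 (adjusted p = 0.0508). Per kilobase of transcript, Cyp2c40 was at between 0.364 and 0.5997 times Cyp2c68 in the saline libraries and at 0.00509 and 0.00658 times in the APAP libraries. The ratios of the groups did not overlap.

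Cyp2c70 (ENSMUSG00000060613, 40153353 to 40187333, minus strand) makes the muricholic acids of mice from chenodeoxycholic acid. It measured 1155, 786 and 877 CPM in saline libraries and 71.3 and 66.6 CPM after APAP, the least variable of the members in both groups (highest over lowest library 1.07 with APAP and 1.47 with saline). It fell by 3.77 on the log2 scale (SE 0.32, edgeR quasi-likelihood test, adjusted p = 0.00286). Cyp2c55 (ENSMUSG00000025002, 39007019 to 39042693, plus strand), a P450 known mainly from the colon, had few counts in these libraries. It had 34, 52 and 25 counts with saline and 8 and 2 with APAP, where a count of 2 is under the floor. This was 3.05, 3.45 and 1.67 CPM against 0.470 and 0.124 CPM, and its log2 fold change of −3.15 (SE 0.73) had an adjusted p of 0.0501 in the same edgeR test. Leaving out APAP replicate 1 or 3 gave −4.36 or −2.52.

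**Figure D2:**
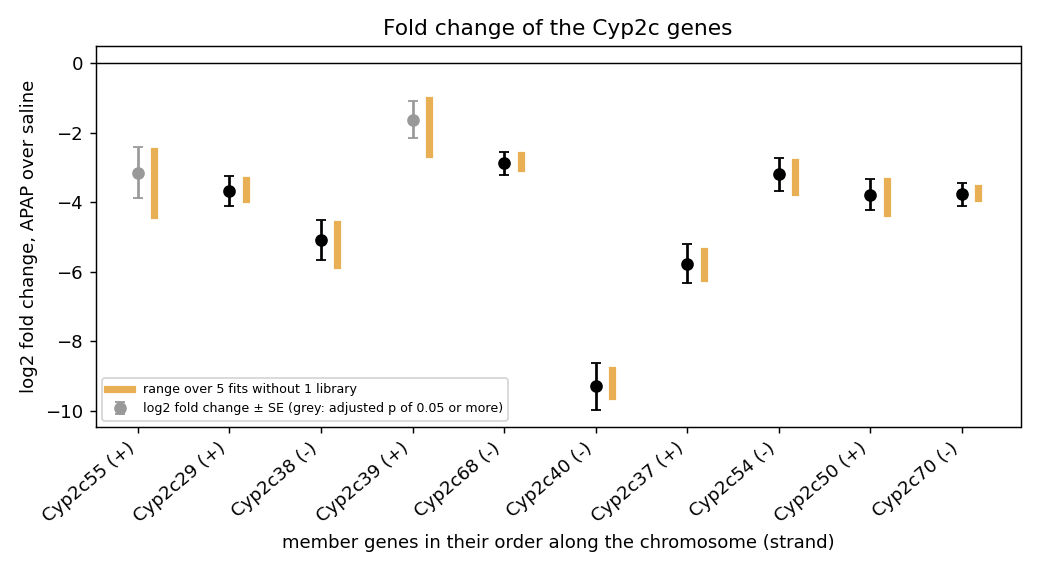
Log2 fold change (APAP over saline) with its standard error for the 10 Cyp2c genes in their order along chromosome 19, with strand in parentheses. Orange bars span the 5 fits that each leave out 1 library, and Cyp2c39 and Cyp2c55 (grey) did not pass the adjusted threshold, while Cyp2c40 was lowest at −9.29.

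The order of the members changed between the groups. Per kilobase of transcript, the saline means ran from Cyp2c29 (1079 CPM per kilobase) through Cyp2c37 (730.5), Cyp2c50 (629.6), Cyp2c70 (547), Cyp2c68 (360.1), Cyp2c54 (264) and Cyp2c40 (180.7) to Cyp2c38 (49.5), Cyp2c39 (5.03) and Cyp2c55 (1.37). Among the saline libraries each neighbour from Cyp2c29 to Cyp2c40 overlapped the next, while Cyp2c38, Cyp2c39 and Cyp2c55 each lay apart. Within each saline library, however, Cyp2c29 was above Cyp2c37, and the order from Cyp2c70 down to Cyp2c55 was the same. Cyp2c37, Cyp2c50 and Cyp2c70 changed places in WT3, where Cyp2c70 was the highest of the 3. In the APAP libraries the means ran from Cyp2c29 (83.99 CPM per kilobase) through Cyp2c68 (49.0), Cyp2c50 (45.8), Cyp2c70 (40.2), Cyp2c54 (28.8) and Cyp2c37 (13.5) to Cyp2c39 (1.62), Cyp2c38 (1.45), Cyp2c40 (0.285) and Cyp2c55 (0.149). Here Cyp2c50 overlapped Cyp2c68, Cyp2c70 and Cyp2c54, and Cyp2c39 overlapped Cyp2c38. Within each APAP library Cyp2c29 was highest, Cyp2c70 was above Cyp2c54, and Cyp2c54 above Cyp2c37.

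As shares of the summed level per kilobase, Cyp2c37 made up 20.0%, 19.2% and 16.8% of the 10 members in the saline libraries and 6.85% and 3.57% in the APAP libraries. The share of Cyp2c40 went from between 3.75% and 5.37% to 0.106% and 0.109%. Cyp2c68 went the other way, from between 8.95% and 10.3% to 20.8% and 16.5%, since it fell least among the abundant members. Cyp2c29 had the largest share in every library, between 25.6% and 29.2% with saline and at 32.1% and 31.4% with APAP. Cyp2c50 and Cyp2c54 did not hold the same place in both APAP libraries, with 12.95% and 8.36% in replicate 1 and 21.1% and 13.1% in replicate 3.

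**Figure D3:**
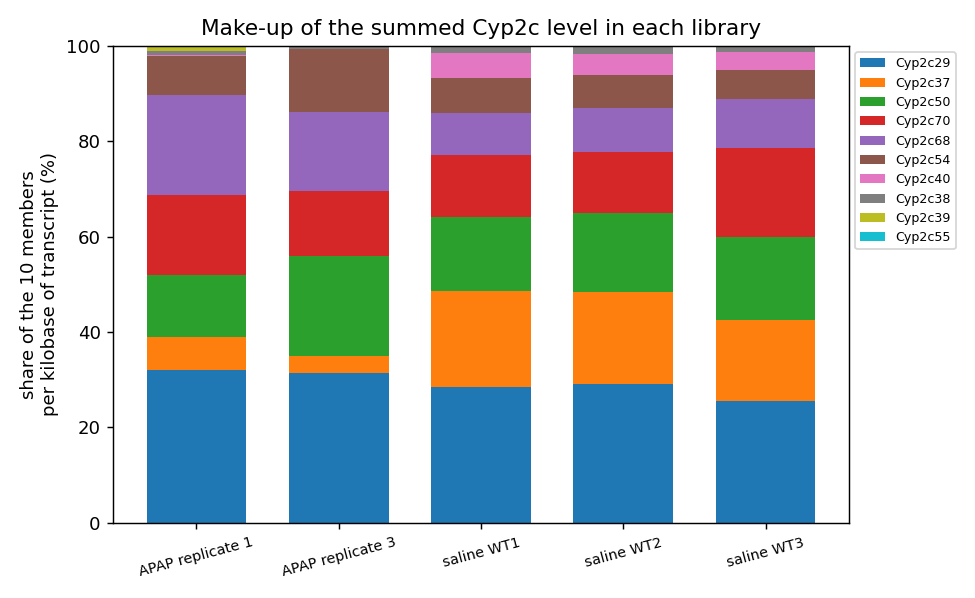
Stacked bars of the share (%) of each Cyp2c gene in the summed level of the 10 members, in CPM per kilobase of transcript, for each library. The orange Cyp2c37 and pink Cyp2c40 segments are wide in the saline bars and narrow in the APAP bars, while the purple Cyp2c68 segment widens to 20.8% and 16.5%.

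Members that resemble each other can share reads, and how the authors' counting assigned such reads is not given in the sources used here. Of the 50-base words of each member's longest protein-coding transcript, 72.1% of those of Cyp2c40, 43.3% of those of Cyp2c68, 30.7% of those of Cyp2c50, 30.1% of those of Cyp2c37 and 25.7% of those of Cyp2c54 occur in a transcript of another gene. The share was 12.0% for Cyp2c39, 7.45% for Cyp2c38, 2.08% for Cyp2c29, 0.514% for Cyp2c55 and 0% for Cyp2c70, so that counts of Cyp2c40 and Cyp2c68 are the least certain. Cyp2c29 also overlaps the pseudogene Cyp2c53-ps, which had at most 4 counts in any library. Sums over genes that share words do not change when a read is moved among those genes, and were chosen after the values had been seen. They still depend on whether shared reads were counted at all. Cyp2c40, Cyp2c68 and the non-members Cyp2c67 and Cyp2c69 together summed to 2230, 1613 and 1129 CPM in saline libraries and to 111.1 and 155.3 CPM after APAP, a mean 12.4 times lower. Cyp2c37, Cyp2c50 and Cyp2c54 together measured 4043, 2776 and 2015 CPM in saline libraries and 125.2 and 193.0 CPM after APAP, 18.5 times lower. Cyp2c38 and Cyp2c39 together measured 202.4, 163.5 and 87.3 CPM in saline libraries and 10.2 and 4.02 CPM after APAP, 21.3 times lower. None of these 3 sums overlapped between the groups.

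**Figure D4:**
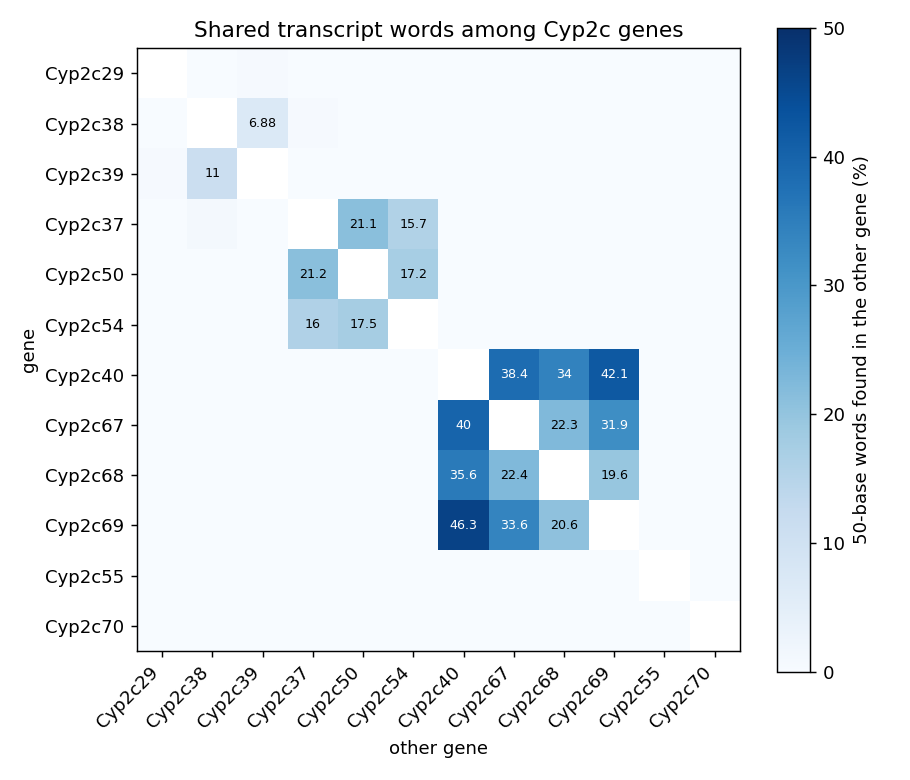
Percent of 50-base words in the transcript of 1 gene (rows) that occur in a transcript of another Cyp2c gene (columns), printed where at least 1%. Members share such words within 3 groups (Cyp2c38 with Cyp2c39, Cyp2c37 with Cyp2c50 and Cyp2c54, and Cyp2c40 with Cyp2c67, Cyp2c68 and Cyp2c69), up to 46.3% for Cyp2c69 in Cyp2c40.

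The other Cyp2c genes did not all move with the members. Of 7 such names listed, 6 were in the table and 3 were tested. Cyp2c69, like Cyp2c40 known as female-biased, fell from 799, 672 and 407.5 CPM with saline to 0.118 and 2.16 CPM with APAP (log2 fold change −9.10, SE 1.11, edgeR quasi-likelihood test, adjusted p = 0.00764). Cyp2c67 measured 122.3, 84.4 and 47.4 CPM in saline libraries and 22.2 and 71.8 CPM after APAP, and these groups overlapped (log2 fold change −0.85, SE 0.57, adjusted p = 0.409). Cyp2c44, an arachidonic acid epoxygenase that lies apart from the cluster, measured 456, 334 and 198.4 CPM in saline libraries and 39.3 and 108.3 CPM after APAP (log2 fold change −2.16, SE 0.55, adjusted p = 0.0625 from the same test). Cyp2c66 had 0 counts in all 5 libraries, and Cyp2c65 was listed above 0 in APAP replicate 1 (2.64 CPM) and in the saline library WT2 (0.133 CPM). Of the 4 genes that share words with Cyp2c40, itself included, Cyp2c40 and Cyp2c69 had the lowest log2 fold changes. With gaps counted as differences, the coding sequence of Cyp2c69 is 97.7% identical to Cyp2c67, 96.5% to Cyp2c68 and 92.4% to Cyp2c40. The annotated coding sequence of Cyp2c40 is longer (1560 bases against 1473 for Cyp2c67, Cyp2c68 and Cyp2c69), which lowers the last value. These identities therefore cannot rank Cyp2c40 against Cyp2c67 and Cyp2c68. Of the words of Cyp2c69, 46.3% occur in Cyp2c40, 33.6% in Cyp2c67 and 20.6% in Cyp2c68.

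Transcription of Cyp2c genes in hepatocytes depends on nuclear receptors such as PXR (Nr1i2) and CAR (Nr1i3) and on liver factors such as HNF4A and C/EBPα. Of 22 tested genes for such receptors and factors, 3 fell, 0 rose and 19 did not pass the test, with a median log2 fold change of −0.54. Cebpa, which encodes C/EBPα, measured 286.8, 254 and 204.8 CPM in saline libraries and 109.3 and 86.1 CPM after APAP (log2 fold change −1.35, edgeR quasi-likelihood test, adjusted p = 0.0330). Stat5b, which carries the growth hormone signal that sets sex-biased expression in liver, measured 97.2, 84.96 and 80.4 CPM in saline libraries and 29.5 and 28.7 CPM after APAP (log2 fold change −1.59, adjusted p = 0.00981). Cux2, a factor known from female mouse liver, measured 19.3, 5.25 and 5.95 CPM in saline libraries and 0.118 and 0.494 CPM after APAP (log2 fold change −5.02, adjusted p = 0.0263). Hnf4a was lower after APAP (415 and 706 CPM) than in saline libraries (871, 960 and 1424 CPM) and did not pass the test (log2 fold change −0.95, adjusted p = 0.172). Nr1i2 measured 76.3, 92.4 and 106.8 CPM in saline libraries and 63.4 and 64.35 CPM after APAP. It did not pass the same edgeR test (log2 fold change −0.52, adjusted p = 0.208). Nr1i3 overlapped between the groups, with 254.4, 611 and 579.6 CPM in saline libraries and 284 and 195.1 CPM after APAP (log2 fold change −1.01, adjusted p = 0.206).

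P450 enzymes receive electrons from P450 reductase (Por) and cytochrome b5. Of 9 genes for electron supply and heme, 1 rose, 1 fell and 7 did not pass the test, with a median log2 fold change of −0.45. Por itself measured 297.9, 149.0 and 462 CPM in saline libraries and 361 and 350.0 CPM after APAP, so that the groups overlapped (log2 fold change 0.23, edgeR quasi-likelihood test, adjusted p = 0.796). Cyb5a, the cytochrome b5 of the endoplasmic reticulum, measured 658.6, 532 and 525 CPM in saline libraries and 381 and 376 CPM after APAP and did not pass the test (log2 fold change −0.59, adjusted p = 0.199). Cyb5b, a cytochrome b5 of the outer mitochondrial membrane, fell from 661, 638 and 346.5 CPM to 131.0 and 193.1 CPM (log2 fold change −1.76, adjusted p = 0.0424). Hmox1, which breaks down heme, rose from 28.05, 16.1 and 41.4 CPM to 89.9 and 121.6 CPM (log2 fold change 1.89, adjusted p = 0.0358). Alas1, the first enzyme of heme synthesis, measured 76.7, 191.5 and 216 CPM in saline libraries and 284.9 and 327 CPM after APAP and did not pass the test (adjusted p = 0.239).

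The products of several members are fatty acid epoxides, which epoxide hydrolases open to diols. Of 12 tested genes that make or handle fatty acid epoxides and related products, 1 fell, 0 rose and 11 did not pass the test, with a median log2 fold change of 0.21. Beside Ephx and Cyp2j genes, those tested were Cyp4a10, Cyp4a12a, Cyp4a14, Pla2g4a, Alox5, Ptgs1 and Ptgs2, all with a positive log2 fold change. Ephx1, Cyp2j5, Cyp2j6 (−0.68) and Cyp2j9 (−0.34) had a negative one. The gene that fell was Ephx1, the microsomal epoxide hydrolase, at 537, 348.6 and 428.7 CPM in saline libraries and 134.4 and 203.0 CPM after APAP (log2 fold change −1.38, edgeR quasi-likelihood test, adjusted p = 0.0492). Ephx2, the soluble epoxide hydrolase, measured 615.5, 431 and 552 CPM in saline libraries and 541 and 565 CPM after APAP, and the groups overlapped (log2 fold change 0.05, adjusted p = 0.929). Cyp2j5, another epoxygenase of the liver, measured 722, 687 and 541 CPM in saline libraries and 117.7 and 299.6 CPM after APAP and did not pass the test (log2 fold change −1.64, adjusted p = 0.0717).

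Cyp2c70 acts in bile acid synthesis, and of 8 other genes of bile acid synthesis and transport 4 fell, 0 rose and 4 did not pass the test, with a median log2 fold change of −1.80. Cyp7a1, the rate-limiting enzyme, fell from 72.7, 163.4 and 114.6 CPM with saline to 1.18 and 1.42 CPM with APAP (log2 fold change −6.48, SE 0.48, edgeR quasi-likelihood test, adjusted p = 0.00184). Abcb11, which exports bile salts, fell from 987.5, 898 and 515 CPM to 95.8 and 110.0 CPM (log2 fold change −2.96, adjusted p = 0.00944). Cyp27a1 and Slc27a5, an oxidase and a ligase of bile acid synthesis, fell by 2.504 and 1.54 on the log2 scale (adjusted p = 0.00523 and 0.0421). Cyp2a12 measured 707, 612 and 572 CPM in saline libraries and 587 and 494 CPM after APAP, which overlapped (log2 fold change −0.22, adjusted p = 0.643).

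**Figure D5:**
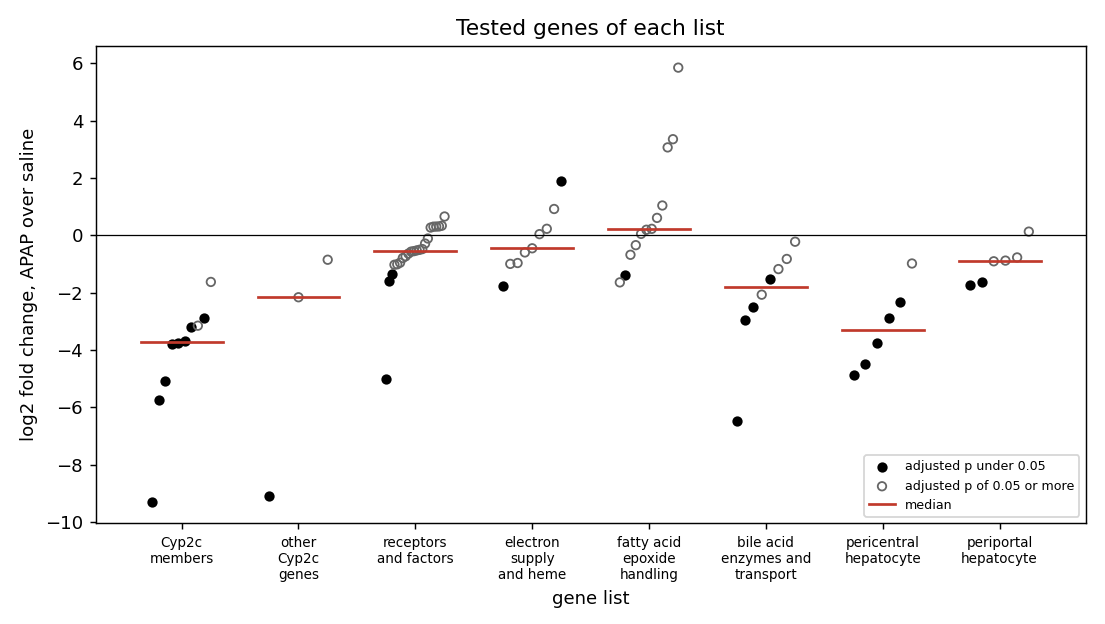
Log2 fold change (APAP over saline) of every tested gene in each list, with filled points for an adjusted p under 0.05, open points for those above and a red line at the list's median. The Cyp2c members (median −3.73) sit near the pericentral list (median −3.31). They sit below the lists of receptors and factors (median −0.54) and electron supply (median −0.45). They also sit below epoxide handling (median 0.21), a list that includes Cyp4a, Pla2g4a, Alox5 and Ptgs genes.

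Genes of hepatocytes around the central vein moved beside the members. Of 6 such genes tested, 5 fell (Glul, Cyp2e1, Cyp1a2, Oat and Lgr5), with a median log2 fold change of −3.31, against 2 of 6 genes of periportal hepatocytes (Ass1 and Cyp2f2), with a median of −0.89. The summed level of the pericentral list was 968 and 1856 CPM with APAP and 6978 to 11710 CPM with saline, and that of the periportal list 6723 and 4290 CPM against 9001 to 9617 CPM. The part of pericentral hepatocytes in the lower Cyp2c levels was not tested. Over 7882 genes outside the Cyp2c names with a mean of at least 10 CPM, the 5 whose centred log2 CPM over the 5 libraries was closest to that of the summed members were Glul, Rgn, Mbl2, Pcp4l1 and Afmid. Their root mean square differences from it were 0.318, 0.341, 0.344, 0.353 and 0.374 on the log2 scale. Glul, the glutamine synthetase of the innermost pericentral hepatocytes, measured 1491, 965.5 and 1261 CPM in saline libraries and 102.2 and 82.95 CPM after APAP (log2 fold change −3.74, edgeR quasi-likelihood test, adjusted p = 0.00376).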

How the data were processed

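Per the paper's methods, libraries were sequenced on an Illumina NovaSeq, and the authors deposited raw counts of reads for every gene, made with HISAT2 and not normalized. Builds named in the submitters' processing notes are GRCm38 and mm10. Versions, annotation release and strand setting are not given in the sources used here. The 5 FPKM columns were not used. The 5 count columns were grouped by name as APAP (2) and saline (3).

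The counts were fitted with edgeR 4.0.16 (R 4.3.3). Genes kept by filterByExpr (minimum count 10, minimum total 15; 13734 genes) were normalized by TMM and tested by the quasi-likelihood test (glmQLFit, glmQLFTest) with Benjamini-Hochberg adjustment over all tested genes. The standard error is the log2 fold change divided by the square root of F. The test was tested on simulated data. Alternatives were DESeq2 1.42.0, the exact and likelihood ratio tests of edgeR, other scalings and filters, and each library left out. The study named edgeR but neither its test nor an adjustment.

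Levels were divided by the length of the longest protein-coding transcript of GENCODE M21. Sequences were compared with Python 3.11.15 and Biopython 1.88. The members and lists were chosen with earlier results of these data known. Named genes are the members, list genes and the 5 genes most like the summed members.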

Additional observations from a re-analysis of the deposited data

How the results depend on the processing

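All 10 members kept a negative log2 fold change under the 13 alternatives (12 for Cyp2c40 and Cyp2c55, which could not be tested with at least 10 counts in every library). Of 128 such values, 117 stayed on their side of the adjusted threshold, 7 passed it (2 for Cyp2c39, 5 for Cyp2c55) and 4 lost it (Cyp2c29, Cyp2c54 and Cyp2c68 without APAP replicate 1, Cyp2c54 without WT2). The number of members that fell, 8 in the analysis reported, was between 5 (without APAP replicate 1) and 8 when 1 library was left out. It was 7 to 10 under the other alternatives. Of all genes, 993 had an adjusted p under 0.05, against 1835 with edgeR's likelihood ratio test, 1776 with its exact test and 2093 with DESeq2. Leaving out 1 library gave 165 (without WT2) to 922 (without WT3). Library size only gave 1042 higher and 297 lower genes, against 508 and 485, and the cause was not tested. The summed members' log2 ratio of means, −3.88, was between −4.07 and −3.46 under the scalings and without any 1 library. The other tests and filters were not run on this sum, which is a single value per library. No paired analysis was possible because the saline columns carry no saline sample number. Counts of 8 and 9 (Cyp2c40) and 8 and 2 (Cyp2c55) in the APAP libraries limit how precisely their fold changes are known.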

Other observations

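Markers of other cells were read beside the members. All 5 tested neutrophil genes rose, and the 8 listed summed to 108.2 and 71.2 CPM with APAP and to 4.03, 4.85 and 7.75 CPM with saline. S100a9, an abundant calcium-binding protein of neutrophils, measured 1.13 to 2.004 CPM in saline libraries and 41.5 and 30.3 CPM after APAP (edgeR quasi-likelihood test, adjusted p = 0.00181), while Ly6g was at most at 0.494 CPM in any library. Of the 5 cholangiocyte genes, 2 rose (Sox9 and Spp1), and the list summed to 347 and 355.4 CPM against 47.1, 52.0 and 47.7 CPM. None of the 6 Kupffer cell, 6 endothelial or 3 tested lymphocyte genes passed the test, and 1 of 6 stellate genes (Col1a1) rose. The 5 hepatocyte genes in the table did not pass the test either, and their median log2 fold change was −0.70, less far from 0 than that of the Cyp2c members. The part of these cells in the lower Cyp2c levels was not tested.

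Cyp4a12a, known as a male-biased P450 of mouse liver, measured 0, 0.465 and 0.134 CPM in saline libraries and 0.823 and 24.9 CPM after APAP, and did not pass the test (edgeR quasi-likelihood test, adjusted p = 0.0597). Both APAP libraries were above all saline libraries, with 14 counts in APAP replicate 1 and 7 in WT2.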
